A study of Rattus norvegicus with 2 samples.

Results

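The genes described here encode the 3 mammalian TGF-beta isoforms (Tgfb1, Tgfb2, Tgfb3), their receptors (Tgfbr1, Tgfbr2, Tgfbr3), 2 latent TGF-beta binding proteins (Ltbp1, Ltbp2) and the intracellular mediators Smad3 and Smad7. Members were the non-control array spots whose gene name, without an ending for predicted or mapped genes, was that of a listed gene. By that rule 9 of the 10 listed genes were found, on 11 probes and 20 spots of an array with 41012 probes. Smad7 was present only under its older name Madh7 and was added through its RefSeq accession, on 1 further probe.

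RNA of fetal skin from Sprague Dawley rats was compared between a pool of 3 samples called E19 (day 18.5) and a pool of 4 samples called E16 (day 16.5). No treatment, wound or genetic change is given in the labels for either pool. Both pools were hybridised together on 2 Agilent arrays. E19 carried Cy5 on the first array and Cy3 on the second. Each stage is 1 pool, so the stages cannot be tested against each other, and the SD given with each value is the spread of these 2 arrays only, with nothing of the variation between fetuses or litters.

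TGF-beta ligands are secreted in a latent form, in which the cleaved propeptide still wraps the growth factor, and latent TGF-beta binding proteins tether this complex to the extracellular matrix. Once released, the ligand binds the type II receptor, which phosphorylates the type I receptor, and the type I receptor in turn phosphorylates SMAD2 and SMAD3. In mammals, skin wounds of early fetuses heal without a scar and those of later fetuses with one, and E16 and E19 in the rat are commonly used for the stages before and after that change. The isoforms have been given different parts in scarring in wound studies, TGF-beta 3 being the one tied to less scarring, which is the background for comparing them here.

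The share of spots above background ran from 71.5% to 74.3% over the channels. In all, 14790 named genes were detected, that is, well above background for at least 1 pool on both arrays. Their log2 ratios of E19 over E16 correlated between the arrays with r = 0.90 across genes, which are not independent replicates, and had a median SD of 0.11. Keratin and collagen markers of skin (Krt5, Krt14, Col1a1, Col3a1) were detected in both pools. Of the 10 genes, 9 were detected in both pools on both arrays, and Smad3 was not well above background in either pool.

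The isoforms differed in how their transcripts stood between the stages. Tgfb2 was lower in the E19 pool, while Tgfb3 (-0.14) and Tgfb1 (0.31) had log2 ratios of E19 over E16 nearer 0. On the array as a whole, a gene was called higher in a pool when it was at least 2-fold higher there on both arrays, and of the isoforms only Tgfb2 met that rule. In pooled tissue, fewer cells of a type and less RNA per cell cannot be told apart.

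Tgfb2, the isoform known for its part in heart, skeletal and epithelial development, had normalised intensities of 550.0 and 498 in the E19 pool on the first and second array, against 1217 and 1136 in the E16 pool. The E19 values lay below both E16 values, with no overlap. Its log2 ratio of E19 over E16 was -1.15 on the first array and -1.19 on the second, a mean of -1.17 ± 0.03 (SD of 2 arrays), which is 2.25-fold higher in E16. The probe lies on chromosome 13 at 102908405 to 102908464 in the coordinates of the files, which name no genome build.

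Tgfb3 was the isoform with the smallest difference under the main normalisation, but with centring on spike-in RNAs it was at -0.36 and Tgfb1, at 0.093, had the smallest. Tgfb3 had 3782 and 4261 in the E19 pool, against 4175 and 4685 in the E16 pool. The values of the pools overlapped across arrays, but on each array E19 was the lower, though with median centring the first array read 0.24. The log2 ratio was -0.14 ± 0.00 (SD of 2 arrays). So close an agreement of 2 readings says little of their precision, since genes of similar brightness had a median SD of 0.12.

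Tgfb1, the isoform most widely expressed in adult tissues, had 970.5 and 1038 in the E19 pool, against 817 and 802 in the E16 pool. Both E19 values lay above both E16 values. The log2 ratio was 0.31 ± 0.09 (SD of 2 arrays), or 1.24-fold higher in E19. Its probe was printed at 10 spots per array, and under the main normalisation all 10 spots read above 0 on both arrays. These spots ranged between 0.11 and 0.40 with a median of 0.26 on the first array, and between 0.29 and 0.43 with a median of 0.37 on the second. They repeat 1 probe on the same arrays, and their sides of 0 depend on centring. The ratio was 0.031 on the first array with spike-in centring and 0.028 on the second with median centring.

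**Figure D1:**
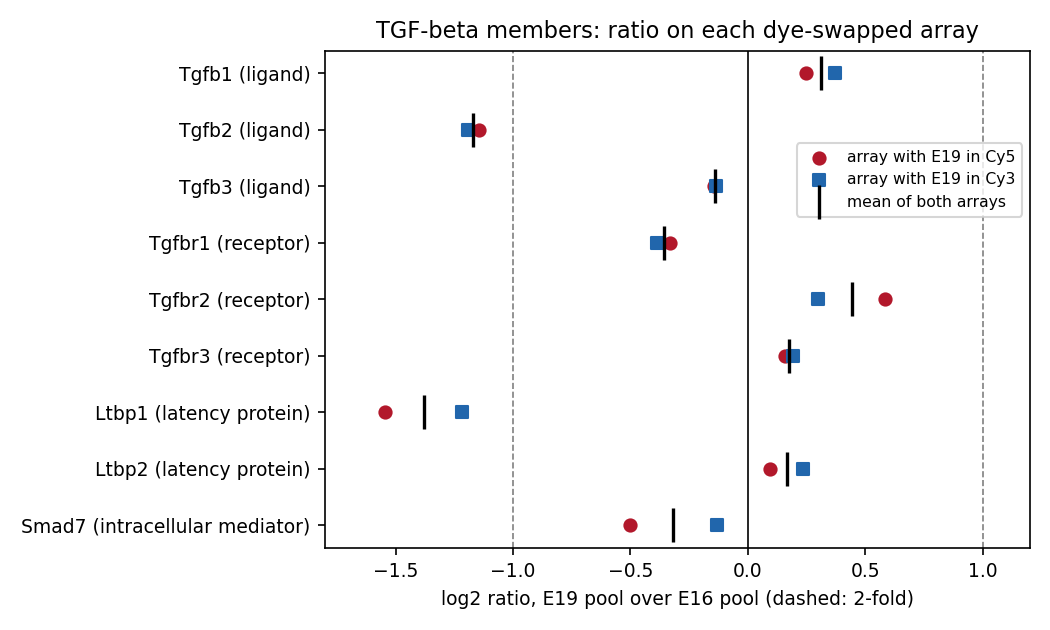
Log2 ratio of the E19 pool over the E16 pool for the 9 detected TGF-beta genes, with circles for the first array (E19 in Cy5), squares for the second (dyes exchanged) and bars for the mean. Tgfb2 and Ltbp1 lie beyond the dashed 2-fold line towards E16 on both arrays, and the other 7 genes lie within the lines, of which Tgfbr3 and Ltbp2 fall to the other side of 0 when the ratios are centred on spike-in RNAs.

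Set against each other on the same arrays, the isoforms kept their order. The log2 ratio of Tgfb1 exceeded that of Tgfb2 by 1.39 on the first array and 1.56 on the second, a mean of 1.48 ± 0.12. That of Tgfb2 minus that of Tgfb3 was -1.03 ± 0.04 in the mean. Between Tgfb1 and Tgfb3 the difference was 0.45 ± 0.08, larger than the median array SD of genes as bright as either. These are differences between ratios, since intensities of different probes do not give the isoforms' relative amounts.

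A second probe for Tgfb2, made to a partial coding sequence and named in the files only by its accession, could not serve as a check. It was not well above background in either pool on either array. Its normalised intensities were 90.9 and 91.8 in the E19 pool, against 89.9 and 84.2 in the E16 pool. The Tgfb2 result therefore rests on a single spot per array. In the authors' deposited table, which combines the same arrays, the log2 ratio was -1.25 for Tgfb2, -0.17 for Tgfb3 and 0.37 for Tgfb1.

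**Figure D2:**
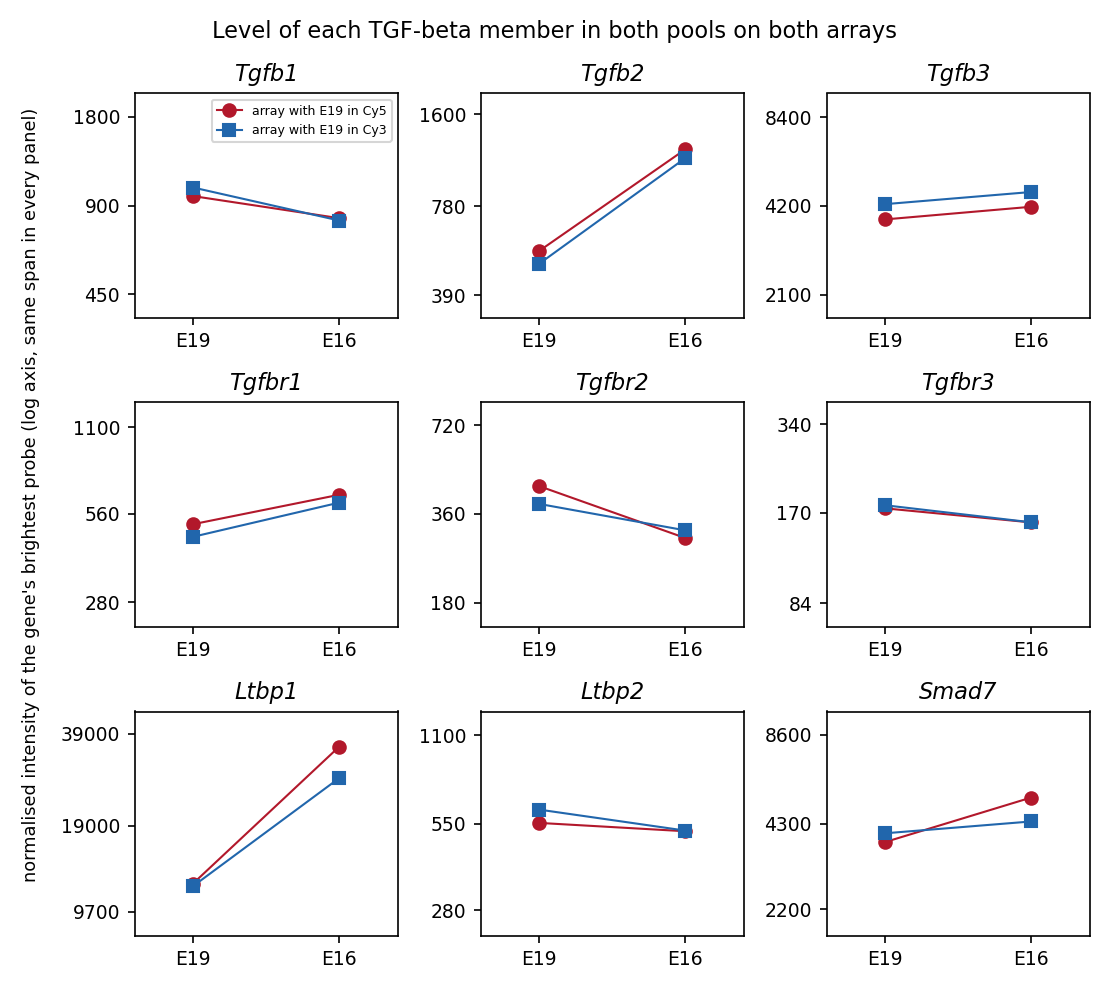
Normalised intensity of the brightest probe of each detected gene in the E19 pool (left) and the E16 pool (right), on a log axis that spans the same fold in every panel, with 1 line per array. The lines of Tgfb2 and Ltbp1 are the steepest, with 550.0 and 498 for Tgfb2 in E19, against 1217 and 1136 in E16.

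The receptors differed by less than 2-fold. Tgfbr2, the ligand-binding kinase that starts the signal, had 448 and 389 in the E19 pool, against 298 and 317 in the E16 pool, with no overlap. Its log2 ratio was 0.58 on the first array and 0.30 on the second, a mean of 0.44 ± 0.20, or 1.36-fold higher in E19. This was the highest ratio among the 9 genes, and the arrays differed in its size more than they did for the other receptors. In the authors' deposited table Tgfbr2 was at 0.64, and with centring on spike-in RNAs it was at 0.22. With median centring its second array read 0.12.

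Tgfbr1, the type I receptor kinase that phosphorylates SMAD2 and SMAD3, had 515 and 467 in the E19 pool, against 648 and 610 in the E16 pool. Both E19 values lay below both E16 values. The log2 ratio was -0.36 ± 0.04, or 1.28-fold higher in E16. It was the only gene of the group with several detected probes, and all 3 read below 0 on both arrays. In the coordinates of the files, the brightest lies on chromosome 5 at 64037313 to 64037372, the next (-0.34 ± 0.06) at 64036492 to 64036551, and the dimmest (-0.20 ± 0.03) at 64013804 to 64013863.

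The type I and type II receptors thus lay on opposite sides of 0. The log2 ratio of Tgfbr1 minus that of Tgfbr2 was -0.92 on the first array and -0.68 on the second, a mean of -0.80 ± 0.17. Tgfbr3, or betaglycan, the co-receptor that presents TGF-beta 2 in particular to the type II receptor, had 176 and 181 in the E19 pool, against 158 and 158 in the E16 pool. Its log2 ratio was 0.18 ± 0.02, but it was the dimmest detected gene of the group, and its ratio was 0.35 with Feature Extraction's processed signals and -0.04 when centred on the control RNAs spiked into the labelling.

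The latent TGF-beta binding proteins differed from each other. Ltbp1, which binds the small latent complex covalently and fixes it to fibrillin microfibrils, had 12095 and 11849 in the E19 pool, against 35244 and 27567 in the E16 pool. There was no overlap, and the E16 values differed more from each other than the E19 values did. The log2 ratio was -1.54 on the first array and -1.22 on the second, a mean of -1.38 ± 0.23, which is 2.60-fold higher in E16. Its single probe lies on chromosome 6 at 19945662 to 19945721 in the coordinates of the files, and genes of similar brightness had a median array SD of 0.17.

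Ltbp2, which resembles Ltbp1 in its domains but is not known to bind latent TGF-beta, had 554 and 615 in the E19 pool, against 519 and 522 in the E16 pool. Its log2 ratio was 0.17 ± 0.10, and it was -0.05 when centred on spike-in RNAs. The log2 ratio of Ltbp1 was under that of Ltbp2 by the array values -1.64 and -1.45, a mean of -1.55 ± 0.13.

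The promoter of Ltbp1, called higher in E16, is printed beside that of Tgfb1, which was not called, to show the sequence in front of a gene on each side. The sequences are RefSeq's for the GRCr8 build, 250 bases before to 50 bases after the start, 5′ to 3′ on the gene's strand. Ltbp1 lies at chr6:26177252-26177551 on the minus strand and Tgfb1 at chr1:90324062-90324361 on the plus strand. Capitals mark a CRE (TGACGTCA), a SMAD box (CAGAC) or a TATA box (TATAAA), each searched on both strands.
Ltbp1: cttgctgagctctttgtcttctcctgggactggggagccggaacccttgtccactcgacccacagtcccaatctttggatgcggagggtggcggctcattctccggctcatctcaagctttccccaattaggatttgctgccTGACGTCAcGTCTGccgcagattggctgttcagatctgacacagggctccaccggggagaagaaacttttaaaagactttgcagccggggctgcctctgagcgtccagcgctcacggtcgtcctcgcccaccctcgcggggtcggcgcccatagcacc
Tgfb1: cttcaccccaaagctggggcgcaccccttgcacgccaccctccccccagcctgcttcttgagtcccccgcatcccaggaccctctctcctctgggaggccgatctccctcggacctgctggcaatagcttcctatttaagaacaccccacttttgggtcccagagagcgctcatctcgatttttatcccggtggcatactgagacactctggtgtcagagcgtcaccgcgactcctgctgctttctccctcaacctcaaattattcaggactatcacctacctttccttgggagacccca

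The Ltbp1 window holds 1 CRE, the element bound by CREB and ATF proteins, 108 bases before the start, and beside it, without overlap, 1 SMAD box on the minus strand 99 bases before the start. Of 33469 RefSeq promoters of the same length, 1.83% held a CRE and 50.1% a SMAD box, so the latter is common. No such letters are in the Tgfb1 window. Searched but not marked were the CCAAT box (CCAAT), GC box (GGGCGG), AP-1 site (TGANTCA) and SMAD palindrome (GTCTAGAC). Of these the Ltbp1 window held only CCAAT boxes, 3 of them, a motif that 37.5% of promoters held, and the Tgfb1 window held none. Another Ltbp1 transcript starts 45 bases further upstream in RefSeq. The windows of Tgfb2, Tgfb3, Tgfbr2 and Ltbp2 are not printed because RefSeq places another start at least 272 bases upstream of theirs. The window of Tgfb2, which was also called, held none of the marked motifs, and that of Ltbp2, which was not called, held 3 SMAD boxes. Any link between motifs and calls was not tested.

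Among the intracellular mediators only Smad7 could be measured. Smad7, the inhibitory SMAD that TGF-beta signalling itself induces, had 3723 and 3986 in the E19 pool, against 5272 and 4373 in the E16 pool. There was no overlap, although the arrays disagreed on the size, with log2 ratios of -0.50 and -0.13 and a mean of -0.32 ± 0.26. Smad3, a receptor-activated SMAD, read a mean signal of 62.8 and 40.6 over local backgrounds of 54 and 34.5 in the E19 pool, against 39.7 and 83.2 over 38 and 51 in the E16 pool. Its probe was not well above background in any of these 4 readings, and no fold is given.

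Ordered by mean log2 ratio, the genes ran from Ltbp1 (-1.38) and Tgfb2 (-1.17) through Tgfbr1, Smad7, Tgfb3, Ltbp2, Tgfbr3 and Tgfb1 to Tgfbr2 (0.44). Ltbp1 and Tgfb2 were 0.21 apart, within the array SD of Ltbp1, though their array values did not overlap. The gap between Tgfb2 and Tgfbr1 was 0.81, far above the array SD of either. Within the rest of the order, the array values of Tgfbr1 and Smad7, of Smad7 and Tgfb3, of Ltbp2 and Tgfbr3, and of Tgfb1 and Tgfbr2 overlapped, so these neighbours did not differ beyond their spread.

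Of the 9 detected genes, 2 were called higher in E16 and 0 higher in E19. Over all 14790 detected genes, 3.75% were called higher in E16, 4.14% higher in E19 and 7.89% in either direction. The median log2 ratio of the 9 was -0.14, beside 0.02 over all detected genes. The ratio of 370 detected genes, Ltbp1 included, was as low as that of Ltbp1 or lower, and for Tgfb2 that number was 504, while 41.7% of all genes had a larger difference in size than Tgfb1 and 68.2% a larger one than Tgfb3. The 2 calls rest on normalisation by loess, as median centring left neither past 2-fold on both arrays: Tgfb2 was then at -0.85 on the first array and -1.51 on the second, and Ltbp1 at -0.93 and -1.87.

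**Figure D3:**
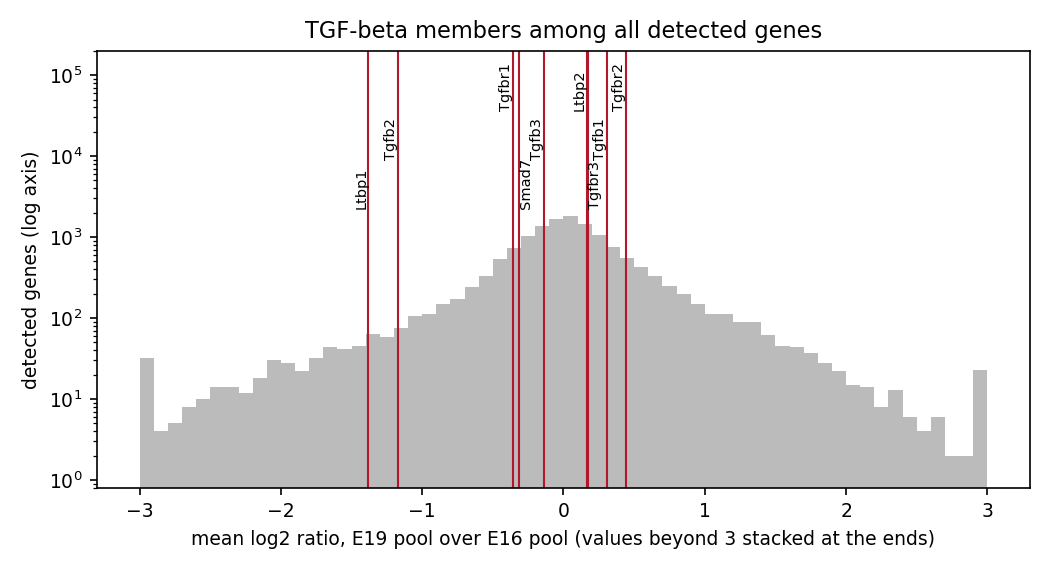
Histogram of the mean log2 ratio of E19 over E16 for 14790 detected genes, with a log count axis and a red line for each of the 9 detected TGF-beta genes. Tgfb2 (-1.17) and Ltbp1 (-1.38) lie in the tail towards E16, and the others lie in the bulk of the genes.

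**Figure D4:**
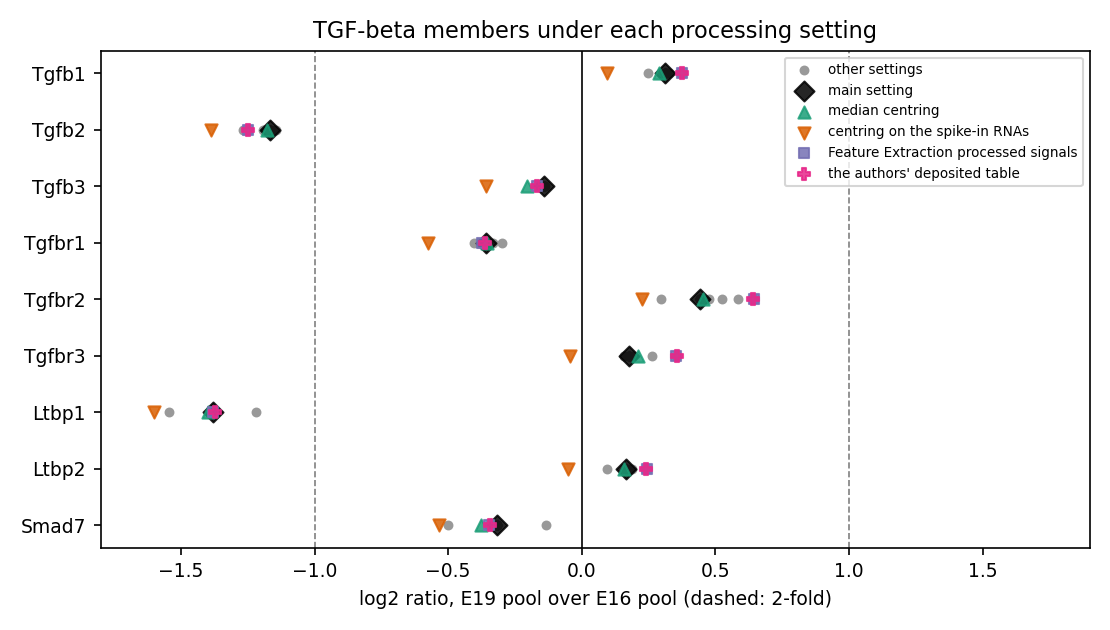
Log2 ratio of E19 over E16 of each detected TGF-beta gene under the main setting (diamonds) and the alternatives, where squares and crosses mark the scanner's processed signals and the authors' deposited table. Tgfb2 and Ltbp1 stay left of -1 in the mean under every setting drawn, and Tgfbr3 and Ltbp2 cross 0 with centring on the spike-in RNAs.

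Other genes of the pathway, taken from 6 lists, were mostly within 2-fold. Of 86 detected, 3 were called higher in E16 (3.49%, beside 3.75% of all genes) and 2 higher in E19 (2.33%, beside 4.14%). Their median log2 ratio was -0.00.

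Latency and activation genes showed no call among 17 detected, with a median of 0.09 that turned to -0.13 when centred on spike-in RNAs. The largest ratios were 0.53 for Nrros, which holds latent TGF-beta on macrophages and microglia, -0.45 for the fibrillin Fbn2, -0.41 for Ltbp3 and 0.35 for Mmp9. Ltbp3 is a further latent TGF-beta binding protein, and its other detected probe read 0.07. Receptor partners also showed no call among 10 detected. Cd109, a membrane co-receptor that damps TGF-beta signalling in keratinocytes, came closest with 962 and 942 in the E19 pool, against 426 and 478 in the E16 pool, and log2 ratios of 1.18 and 0.98. The decoy receptor Bambi read -0.86 ± 0.11, the receptor-binding immunophilin Fkbp1a -0.51 ± 0.07 and the endothelial co-receptor Eng 0.47 ± 0.02.

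SMADs and their regulators showed no call among 17 detected, with a median of -0.07. Zeb1, a transcriptional repressor that binds SMADs, just missed the rule on its brightest probe, with a log2 ratio of -0.98 ± 0.03. That probe had 6663 and 6994 in the E19 pool, against 13357 and 13552 in the E16 pool. The other detected Zeb1 probe read -0.67. The ubiquitin ligases did not move as one. Nedd4l read -0.79 ± 0.07 and Smurf2 -0.36 ± 0.11, while Smurf1 read 0.56 ± 0.15. The 3 detected probes of Smurf2 ran from -0.36 to -0.07.

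Known TGF-beta response genes had 1 call in each direction among 28 detected and a median of -0.13. That is 7.14% called in either direction, beside 7.89% of all genes. Acta2, Tnc and Adam12 of that list had no named probe. For Tpm1, which encodes a tropomyosin, the brightest probe read -0.28 and was not called, but 1 of its 4 detected probes, at -1.29, passed the rule towards E16. Cdkn2b, a cell cycle inhibitor that TGF-beta induces in epithelial cells, had 1361 and 1412 in the E19 pool, against 425 and 491 in the E16 pool, with log2 ratios of 1.68 and 1.52. Tagln, an actin-binding protein of smooth muscle and myofibroblasts, had 3829 and 2860 in the E19 pool, against 9617 and 9652 in the E16 pool, a log2 ratio of -1.54 ± 0.30. Neither pair of pools overlapped. The transcription factor gene Junb (1.14 ± 0.28) was not called.

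The arrays disagreed for 3 bright collagen genes of that list. Col3a1 had a log2 ratio of 1.73 on the first array and 0.06 on the second, Col1a2 read 1.15 and 0.30, and Col1a1 read 1.02 and 0.04. Their SDs, 1.18 for Col3a1 among them, were several times the median of all genes, whereas Col5a1 read 0.15 and 0.13.

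Of the 4 small proteoglycans that bind TGF-beta, 1 was called in each direction, beside 3.75% of all genes higher in E16 and 4.14% higher in E19. Fmod, which encodes fibromodulin, had 1776 and 1547 in the E19 pool, against 10118 and 9624 in the E16 pool, a log2 ratio of -2.57 ± 0.09. Dcn, which encodes decorin, had 77232 and 95501 in the E19 pool, against 30815 and 36516 in the E16 pool, a log2 ratio of 1.36 ± 0.04. With median centring Dcn was at 2.16 on the first array and 0.53 on the second and was no longer called, while Fmod still was. Tagln (-0.92 on the first array) and Gdf11 (-0.88 on the first array) also lost their calls under that setting, and Cdkn2b kept its call. Aspn (0.18 ± 0.22) and Bgn (-0.12 ± 0.73) did not pass it.

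Among activin and GDF ligands and their binders, 1 of 11 detected was called (9.09%, beside 7.89% of all genes) and the median was -0.33. Gdf11, a ligand that patterns the axial skeleton, had 1077 and 1094 in the E19 pool, against 2506 and 2325 in the E16 pool, a log2 ratio of -1.15 ± 0.09. Its other detected probe read -0.14, so the mean of both probes was -0.65. Gdf10 (-0.91 ± 0.04), the muscle growth inhibitor Mstn (-0.82 ± 0.20) and Inhba (-0.46 ± 0.07) were not called.

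**Figure D5:**
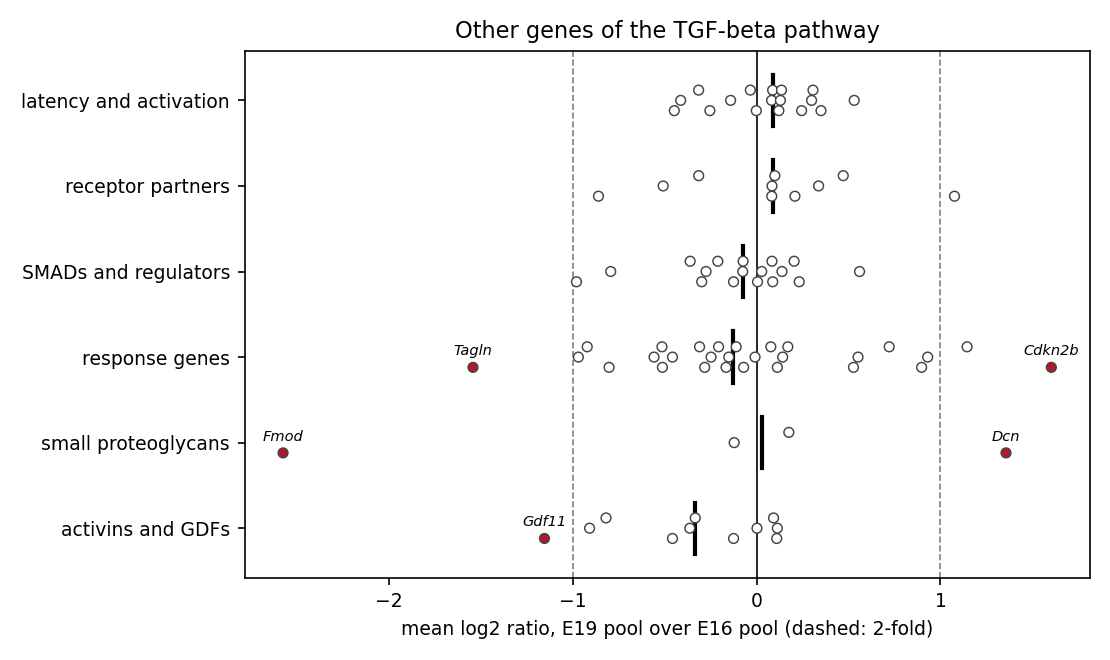
Mean log2 ratio of E19 over E16 for the detected genes of 6 lists of the TGF-beta pathway, with filled circles for genes called at 2-fold on both arrays and black bars for the list medians. The 5 filled genes are Fmod, Tagln and Gdf11 towards E16 and Dcn and Cdkn2b towards E19, and the bars for latency genes, receptor partners and proteoglycans move below 0 when ratios are centred on spike-in RNAs.

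Markers of several cell types differed between the pools in the same direction as Tgfb2 and Ltbp1. Of 9 detected cartilage and bone markers, 7 were called higher in E16, and their summed intensity was 13588 to 15305 in the E19 pool, against 57639 to 58559 in the E16 pool. Of 8 nerve and glia markers, 5 were called higher in E16, with sums of 7548 to 7822 in the E19 pool, against 49578 to 49612 in the E16 pool. Muscle markers were split. Skeletal muscle markers had 2 called higher in E19 and 3 higher in E16 of 8, and 1 of 4 smooth muscle markers, Tagln, was called higher in E16. The smooth muscle markers Cnn1 (-0.97), Myh11 (0.95) and Des (0.03) were not called and lay on both sides of 0. None of these lists was without signal in either pool, and their part in the Tgfb2 and Ltbp1 ratios was not tested.

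Other markers went the opposite way, beside 4.14% of all genes called higher in E19. Of 6 suprabasal keratinocyte markers, 5 were called higher in E19, as were 6 of 6 adipocyte, 6 of 6 liver and plasma protein, 2 of 7 macrophage and 2 of 7 basal keratinocyte markers. The adipocyte markers summed to 88646 to 90551 in the E19 pool, against 4901 to 6608 in the E16 pool. Endothelial markers had 0 of 7 called and a median of 0.45. Fibroblast markers had 1 of 7 called, Dcn, and a median of 0.68. Col1a1, Col1a2 and Col3a1, on which the arrays disagreed, are on that list, and Pdgfra read -0.31. The part of all these marker lists in the ratios of the TGF-beta genes was not tested.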

How the data were processed

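Per the file headers, spot intensity was read in both channels by Agilent Feature Extraction 9.5.1.1, whose deposited output gives uncorrected intensities, processed intensities and a log10 ratio of Cy5 over Cy3. A further log10 ratio, in the authors' deposited table, joins the arrays; how is not given in the sources used here. It was read as E19 over E16 because it correlated with red over green on the first array (r = 0.90) and inversely so on the second (r = -0.89). The deposited p-values were not used.

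Here, mean signals were background-corrected with normexp at offset 50 and loess-normalised per array, giving control spots a weight of 0 (limma 3.58.1, R 4.3.3). Spots flagged as outliers were left out, ratios were turned to E19 over E16 and spots of a probe were averaged. The brightest detected probe stood for each gene. Levels are intensities per channel after loess and Aquantile normalisation. The offset draws the ratios of dim genes towards 0. Probes were named through RefSeq accessions, symbols and synonyms, and 17606 of 41012 had no gene name. Later steps used Python 3.11.15.

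The steps were also run on simulated arrays with known changes, random noise and a dye effect linear in log2 intensity. Those arrays lacked disagreement like that of the bright collagen and keratin genes, so they say little of the precision here. Members, lists, and the rule for named genes (every member, and of each list the genes called and those with the largest ratios) were chosen with earlier results of these data known. Beyond that rule, the collagens, Tpm1, Krt1, Krt14 and Pdgfra were named after their values were seen. The alternatives changed background correction, normalisation, probe choice, filters, arrays, centring, fold and source. The 2 arrays limit the precision.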

Additional observations from a re-analysis of the deposited data

How the results depend on the processing

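The means of Tgfb2 and Ltbp1 stayed at or beyond 2-fold towards E16 under every alternative run, and no gene of the pathway that was called changed sign. Leaving out 1 array gave Tgfb1 0.25 to 0.37, Tgfb2 -1.19 to -1.15 and Tgfb3 -0.14 to -0.14. With the scanner software's own signals or ratios Tgfb2 was at -1.25 and Tgfb3 at -0.17, as in the authors' deposited table. At normexp offset 0 they were at -1.27 and -0.15. With median centring the arrays gave Tgfb3 opposite signs, 0.24 on the first and -0.64 on the second, with a mean of -0.20. Centring on the 10 spike-in RNAs lowered every ratio by 0.22, to 0.093 for Tgfb1, -1.39 for Tgfb2 and -0.36 for Tgfb3. Members called higher in E16 numbered 2, against 0 with median centring, where the arrays differed in size, and 0 at 3-fold, by construction.

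Pathway genes called higher in E19 numbered 2 and higher in E16 3. These became 1 and 1 with median centring, 2 and 8 with spike-in centring, and 4 and 6 in the authors' deposited table. The limit of 1.5-fold gave 5 and 11, and that of 3-fold 0 and 1. Leaving out 1 array gave 4 to 6 higher in E19 and 3 to 6 higher in E16. Over all genes, 613 were called higher in E19 and 554 in E16, which became 1014 and 889 from the scanner software's own signals or ratios and 1198 and 999 in the authors' deposited table. The limit of 1.5-fold gave 1413 and 1138, and that of 3-fold 178 and 230. Median centring gave 367 and 439, and spike-in centring 389 and 810. The authors' deposited table holds 1 combined ratio, and leaving out 1 array leaves 1 ratio. In those settings the rule therefore asked 2-fold of 1 value and not of both arrays, so their counts are not like for like with the main ones. Except for the fold limits and the spike-in shift, the cause of the other changes was not tested. No paired analysis was possible because the 2 arrays hold the same 2 pools. Signal over background limited Smad3 and the second Tgfb2 probe.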
